A study of Mus musculus with 12 samples.

Results

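The 37 genes described here are interferon-stimulated genes, chosen by symbol as the rows of the deposited count table for Ifit1, Ifit2, Ifit3, Isg15, Usp18, Herc6, Trim25, Rsad2, Cmpk2, Mx1, Mx2, Oas1a, Oas2, Oas3, Oasl1, Oasl2, Eif2ak2, Irf1, Irf7, Irf9, Stat2, Ifih1, Ddx58, Dhx58, Zbp1, Gbp2, Gbp3, Gbp7, Ifi44, Bst2, Xaf1, Rtp4, Parp9, Parp14, Ifi35, Ifi27 and Samd9l. All 37 were found among the 53735 symbols of the table, and all 37 had counts high enough to be tested, as 18236 symbols did. RNA sequencing was done on live mouse mammary epithelial cells sorted on the surface proteins CD24 and CD49f. The 12 libraries form 4 groups of 3: luminal cells of MMTVRANK animals, luminal cells of WT animals, basal cells of MMTVRANK animals and basal cells of WT animals. MMTVRANK names a genotype in which the mouse mammary tumour virus promoter, active in mammary epithelium, drives Rank, the receptor of the cytokine Rankl encoded by Tnfrsf11a; the labels give no strain, age or treatment. Luminal cells line the ducts and lobules and form milk, and basal cells are the contractile outer layer.

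Interferons are secreted proteins, and cells release those of type I on sensing foreign or misplaced nucleic acids. Type I interferons bind a receptor of Ifnar1 and Ifnar2, whose kinases activate a complex that holds Stat2 and Irf9 and binds the interferon-stimulated response element in the promoters of target genes. Type II interferon acts on promoters through the gamma-activated site, and Irf1 is among its best known targets. The products of the target genes bind or cut viral RNA, block translation, tag proteins with the ubiquitin-like protein Isg15, or raise the sensors and factors that start the response again.

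Promoter stretches of 4 members are printed to show these elements. Ifit3 and Gbp3 were among the 3 members with the smallest p between genotypes in luminal cells. Isg15 and Irf1 were added after their values were seen, Isg15 as a standard member and Irf1 because it had the smallest p between the cell populations. The sequences are from RefSeq on GRCm38.p6, read 5′ to 3′ on the strand of the gene, and capitals mark matches to the core of the response element, which is GAAA, any NN and GAAA again (or TTTC, NN and TTTC where it lies on the other strand). In Irf1 they mark TTCNNNGAA, the core of the gamma-activated site, which reads the same on both strands.
Ifit3, chr19:34583329-34583428, plus strand: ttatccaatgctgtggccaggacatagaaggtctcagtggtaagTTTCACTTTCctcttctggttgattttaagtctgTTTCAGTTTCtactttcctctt
Gbp3, chr3:142559944-142560043, plus strand: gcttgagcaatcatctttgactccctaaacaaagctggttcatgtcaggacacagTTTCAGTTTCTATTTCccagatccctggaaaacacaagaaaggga
Isg15, chr4:156200819-156200918, minus strand: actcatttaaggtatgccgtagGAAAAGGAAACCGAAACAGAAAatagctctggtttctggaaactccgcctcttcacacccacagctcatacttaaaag
Irf1, chr11:53769884-53769963, plus strand: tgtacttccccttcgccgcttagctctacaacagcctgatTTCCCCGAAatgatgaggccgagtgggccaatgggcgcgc

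In Gbp3 the capitals hold 2 matches that overlap, and in Isg15 they hold 3. Of the members, 27 matched the promoter table, with 31 entries, and the 250 bases before the start were searched on both strands. The response element core was found in 11 of the 31 (35.5%), against 978 of all 32851 promoters (2.98%). The 11 belong to Bst2, Gbp2, Gbp3, Gbp7, Ifit1, Ifit3, Isg15, Oas1a, Oas3, Rsad2 and Stat2. TTCNNNGAA was found in 6 of the 31 (19.4%), against 7.02% of all promoters; the 6 belong to Bst2, Eif2ak2, Gbp7, Ifit2, Irf1 and Oas1a, so that Bst2, Gbp7 and Oas1a held both. Ifit2 had a TTCNNNGAA match 241 to 233 bases before its start and no match to the response element core in this window.

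Total counts per library lay between 12459547 and 15069578, and levels are given in CPM, the count relative to the library's total over tested genes after TMM scaling. Tnfrsf11a, the gene the genotype raises, had 319, 156 and 238 CPM in MMTVRANK luminal replicates 1, 2 and 3, against 6.36, 90.8 and 9.91 CPM in WT luminal replicates 1, 2 and 3. In basal cells it had 415, 129 and 218 CPM in MMTVRANK replicates, against 73.7, 158 and 65.3 CPM in WT replicates. The library labelled WT luminal replicate 2 thus stood far above the other WT luminal libraries, and the library labelled WT basal replicate 2 lay above MMTVRANK basal replicate 2, against its genotype label. These WT replicate 2 libraries also carry a title and a subtype label that disagree on the population; titles were used, and in all 12 libraries the 10 luminal and 10 basal markers placed the library with the population of its title. In 1 library, MMTVRANK luminal replicate 3, the 25 leukocyte markers summed to 561 CPM, against 124 and 137 CPM in the other MMTVRANK luminal libraries and 131 to 140 CPM in WT luminal libraries. The labels do not say that replicates came from separate animals, so p-values measure the spread between these libraries, which may be technical. In RNA from many cells, fewer cells of a type and less RNA per cell cannot be told apart.

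In luminal cells the question was whether raised Rank goes with a different level of the interferon-stimulated genes. Of the 37 members, 33 had a higher fitted level in MMTVRANK than in WT luminal cells and 4 a lower one, and the median was 0.51 on the log2 scale, but none passed the test. The nearest was Ifit2, whose product binds RNA and restrains translation, with a log2 fold change of 2.32. The Ifit and Isg15 group and the Mx and Oas group had medians of 0.98 over 9 members and 0.83 over 8, and the 3 guanylate-binding members one of 0.89.

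The quasi-likelihood test of edgeR, adjusted by Benjamini-Hochberg over all genes with a threshold of 0.05, called 46 of 18236 genes (0.252%) between genotypes in luminal cells, 17 of them (0.0932%) higher in MMTVRANK and 29 (0.159%) lower. At an unadjusted p under 0.05 it found 3 members, Ifit2, Ifit3 and Gbp3, all higher in MMTVRANK cells, against 7.49% of all genes on that side. DESeq2 called 1 member, Ifit2 (adjusted p = 0.0181), and 4.39% of all genes, and limma-voom called none of the members and 0.159% of all genes. Over all genes the median log2 fold change was 0.03 and 52.8% were higher in MMTVRANK cells.

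Ifit2 had 4.29, 17.6 and 24.96 CPM in MMTVRANK luminal replicates 1, 2 and 3, against 0.599, 3.41 and 5.34 CPM in WT luminal replicates 1, 2 and 3. Replicates 2 and 3 of MMTVRANK were above every WT library, while MMTVRANK replicate 1 lay below the highest WT library, so the groups overlapped. The log2 fold change was 2.32 (SE 0.70, adjusted p = 0.189).

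Ifit3, a partner of the other Ifit proteins, was a rare transcript, with 5, 36 and 47 counts in MMTVRANK luminal libraries and 0, 3 and 0 counts in WT luminal libraries. Each MMTVRANK library was above each WT library. Summed over the group, 88 counts stood against 3. Relative to the TMM-scaled library totals the ratio was 26.7 (95% exact interval 8.85 to 132, for counting error only). The edgeR test gave an adjusted p of 0.266. The library labelled WT luminal replicate 2 held all 3 of the WT counts.

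Gbp3, a guanylate-binding GTPase that acts on the membranes around intracellular pathogens, had 10.01, 34.2 and 31.4 CPM in MMTVRANK luminal replicates, against 5.39, 11.8 and 11.4 CPM in WT luminal replicates. As for Ifit2, MMTVRANK replicate 1 fell among the WT libraries and the other two were above them. The log2 fold change was 1.40 (SE 0.57, adjusted p = 0.341). With the replicate number as a block in the edgeR test it was 1.31, and the adjusted p of 0.05002 lay just above the threshold. The other guanylate-binding members had log2 fold changes of 0.89 for Gbp7 and 0.77 for Gbp2.

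Cmpk2, a nucleotide kinase whose gene lies next to that of the antiviral enzyme viperin (Rsad2), had 7.96, 14.8 and 8.73 CPM in MMTVRANK luminal replicates, against 1.27, 7.59 and 3.81 CPM in WT luminal replicates. The groups did not overlap, though MMTVRANK replicate 1 and the library labelled WT luminal replicate 2 lay close together. Its log2 fold change was 1.31 (SE 0.65, adjusted p = 0.473).

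In all, 6 members had every MMTVRANK luminal library above every WT luminal library, against 10.1% of all genes: Ifit3, Cmpk2, Gbp2, Parp9, Rtp4 and Oas1a. None had every MMTVRANK library below, against 6.82% of all genes, and 31 overlapped. The 4 members with a lower fitted level were the transcription factors Stat2 (log2 fold change −0.22) and Irf9 (−0.16), Ifi35 (−0.16) and Usp18 (−0.08), the protease that takes Isg15 off its targets. Stat2 and Irf9 are parts of the complex that binds the response element, and the RNA sensors Ifih1, Ddx58 and Dhx58 had log2 fold changes of 0.09, 0.22 and 0.50. The 4 IRF and STAT members together had a median of −0.04, with Irf7 at 0.81 and Irf1 at 0.08.

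**Figure D1:**
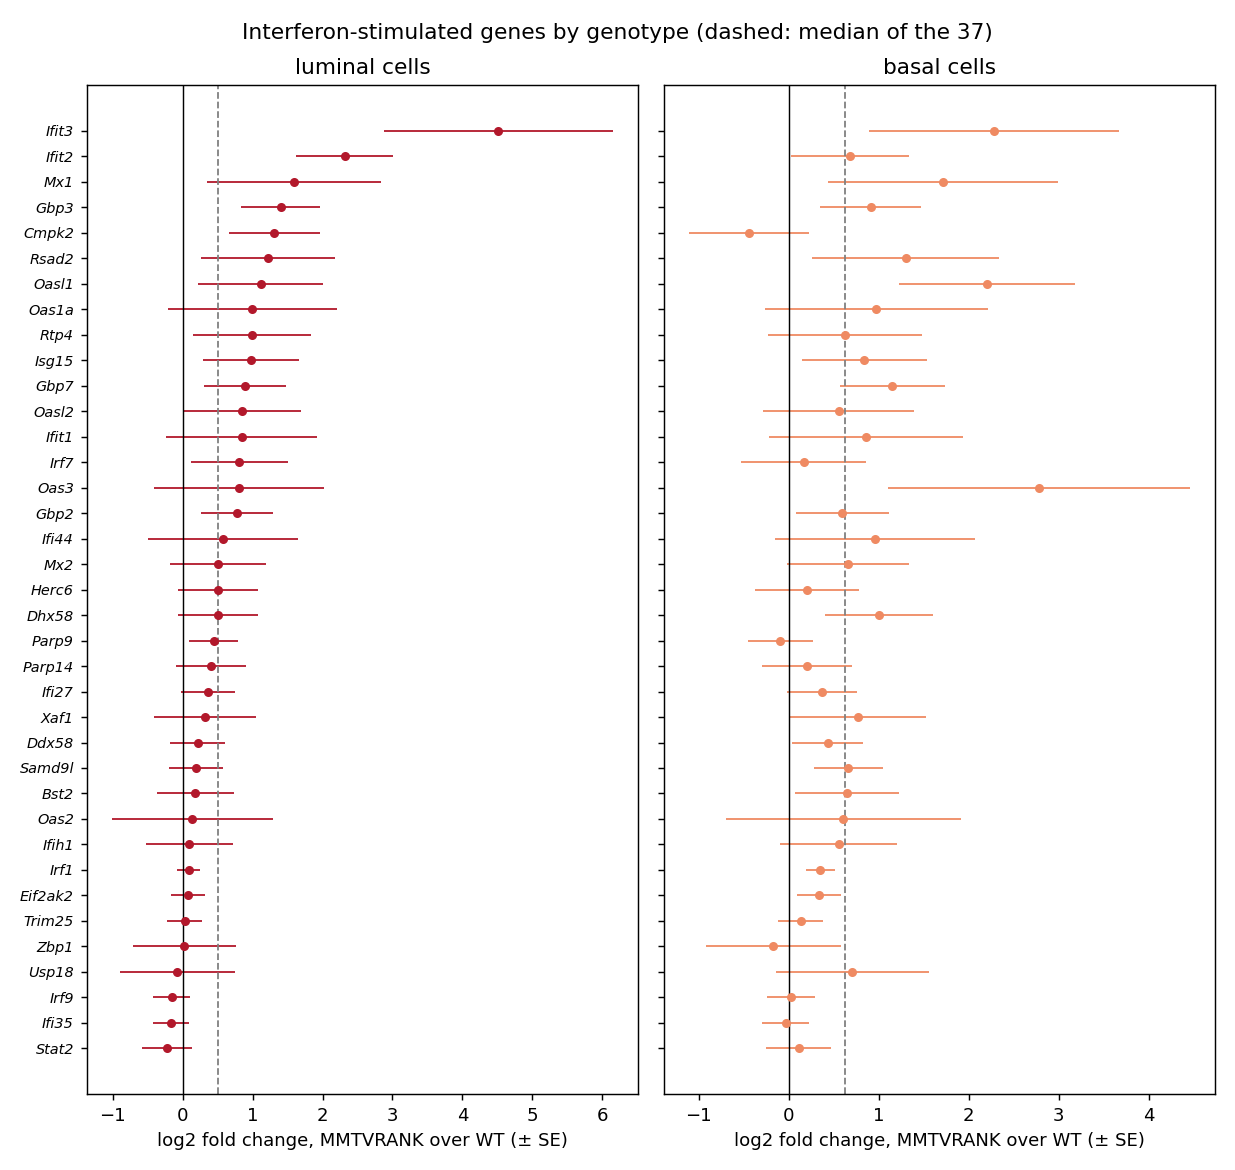
Log2 fold change of each of the 37 interferon-stimulated genes (points, with SE as bars) between MMTVRANK and WT libraries, in luminal cells on the left and basal cells on the right, in the order of the luminal values; the x axes differ in range. The dashed lines are the medians of the 37, 0.51 in luminal and 0.63 in basal cells, and 33 members lie right of 0 in each.

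Without MMTVRANK luminal replicate 3, the library with the high leukocyte markers, no member passed, with 0.057% of all genes called. Then 31 of 37 members were higher in MMTVRANK luminal cells, the median was 0.39, and Ifit2 had a log2 fold change of 1.77 (adjusted p = 0.616). Without both libraries labelled WT replicate 2, 34 were higher and the median was 0.74. The median was 0.26 without MMTVRANK luminal replicate 2 and 0.24 without WT luminal replicate 1. Of the 18 leukocyte markers tested, 17 had a higher fitted level in MMTVRANK than in WT luminal cells, with a median of 2.28 (log2), and none passed. Nkg7 was at 0 in all MMTVRANK luminal libraries and Cd79b in all WT luminal libraries, and 11 and 10 of the 25 leukocyte markers were detected in every library of those groups. All 10 basal markers also had a higher fitted level in MMTVRANK luminal cells, with a median of 1.14 and sums of 75.0 to 391 CPM in MMTVRANK and 36.9 to 113 CPM in WT luminal libraries. Of the 10 luminal markers 9 had a lower one, with a median of −0.67, and their sums of 7597 to 13713 CPM in MMTVRANK luminal libraries did not overlap the 16198 to 22947 CPM of WT luminal libraries. The 10 proliferation markers summed to 792 to 1965 CPM in MMTVRANK luminal libraries, against 65.6 to 375 CPM in WT luminal libraries. None of these markers passed, and the part of these cell types and of proliferation in the members' differences was not tested.

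In basal cells 33 of the 37 members were again higher in MMTVRANK than in WT, and the median was 0.63 (log2), and none passed the test. The highest fitted values were those of Oas3 (2.78), Ifit3 (2.28) and Oasl1 (2.20), whose basal levels reached at most 1.69, 4.13 and 7.76 CPM. For every member the libraries of the groups overlapped, where 6.6% of all genes had every MMTVRANK library above and 4.52% every one below. Irf1, the most abundant member in basal cells per exon length, differed little, by 0.35. Over all genes the test called 1 (0.00548%), which was lower in MMTVRANK cells, the median was 0.00 and 50.5% were higher in MMTVRANK cells.

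Oasl1, an Oas-like protein that represses translation of Irf7 in the mouse, had 1.06, 7.76 and 3.21 CPM in MMTVRANK basal replicates 1, 2 and 3, against 0.309, 1.01 and 1.28 CPM in WT basal replicates 1, 2 and 3. MMTVRANK replicates 2 and 3 were above every WT library and replicate 1 was among them. The log2 fold change was 2.20 (SE 0.98, adjusted p = 0.901 by edgeR's quasi-likelihood test).

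Irf1 had 264, 334 and 342 CPM in MMTVRANK basal replicates, against 224, 227 and 284 CPM in WT basal replicates. WT replicate 3 lay above MMTVRANK replicate 1, so the groups overlapped. The log2 fold change was 0.35 (SE 0.16, adjusted p = 0.901). Gbp7 had 42.4, 209 and 154 CPM in MMTVRANK basal replicates, against 32.8, 50.99 and 98.7 CPM in WT basal replicates, and MMTVRANK replicate 1 lay within the WT range. Its log2 fold change was 1.15 (SE 0.58, adjusted p = 0.917).

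At an unadjusted p under 0.05 there were 2 members, Oasl1 and Irf1, both higher in MMTVRANK basal cells, against 2.31% of all genes on that side, and neither DESeq2 nor limma-voom called a member. Cmpk2 (log2 fold change −0.44), the nucleic acid sensor Zbp1 (−0.17), the ADP-ribosyltransferase Parp9 (−0.09) and Ifi35 (−0.03) were the 4 members with a lower fitted level. The basal value rests on single libraries. Without MMTVRANK basal replicate 2, 19 of 37 members were higher and the median was 0.09; without WT basal replicate 3, 36 were higher and the median was 1.28. Without MMTVRANK basal replicate 1 the median was 1.02 and without WT basal replicate 1 it was 0.36. Without both libraries labelled WT replicate 2 the median was 0.31, with 28 members higher. The leukocyte markers summed to 195 CPM in MMTVRANK basal replicate 3, 22.2 and 19.5 CPM in the other MMTVRANK basal libraries and 15.7 to 33.5 CPM in WT basal libraries, with Cd8a at 0 in all WT basal libraries, and 15 of the 18 tested were higher in MMTVRANK. Other marker lists also differed in fitted level, with no marker passing. Of the proliferation markers 10 of 10 were higher (median 0.79), and 6 of 7 fibroblast (median −1.82), 7 of 8 endothelial (median −0.29) and 9 of 10 luminal markers (median −0.51) were lower in MMTVRANK basal cells. Proliferation markers summed to 458 to 1038 CPM in MMTVRANK and 38.5 to 990.2 CPM in WT basal libraries, and luminal markers to 345 to 441 CPM in MMTVRANK and 584 to 662 CPM in WT basal libraries. The part of these in the members' differences was not tested.

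The genotype difference itself was compared between the populations. No member passed with edgeR, which called 0.00548% of all genes, or with DESeq2 or limma-voom. None had an unadjusted p under 0.05, where 4.55% of all genes did with a difference above 0. The difference (luminal minus basal, log2) was above 0 for 14 members and below 0 for 23, against 53.9% of all genes above 0, with a median of −0.12. Cmpk2 had the smallest p, with a difference of 1.75 (SE 0.93, adjusted p = 0.699), from 1.31 in luminal and −0.44 in basal cells. Ifit2 followed with a difference of 1.64 (SE 0.94, adjusted p = 0.730) and Irf1 with −0.27 (SE 0.23, adjusted p = 0.848). The sign of the median turned in 5 of the 12 settings that leave out 1 library, with values between −0.72 without WT basal replicate 3 and 0.40 without MMTVRANK basal replicate 2, and it was 0.25 without both libraries labelled WT replicate 2.

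The members moved together from library to library within groups. Each library was described by the median, over the 37 members, of log2(CPM + 1) minus the mean of the 6 libraries of its population. This was −0.25, 0.71 and 0.35 in MMTVRANK luminal replicates 1, 2 and 3, against −0.72, 0.08 and 0.02 in WT luminal replicates 1, 2 and 3. In basal cells it was −0.85, 0.99 and 0.49 in MMTVRANK replicates, against −0.68, −0.56 and 0.56 in WT replicates. The libraries of the genotypes overlapped in both populations, and the lowest basal library of all was an MMTVRANK library.

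Replicate 1 was the lowest of its 3 libraries for 29 members in MMTVRANK luminal, 31 in WT luminal, 35 in MMTVRANK basal and 23 in WT basal cells. MMTVRANK basal replicate 2 was the highest of the 6 basal libraries for 27 members, and MMTVRANK luminal replicate 2 the highest of the 6 luminal libraries for 20. WT luminal replicate 1 was the lowest of the 6 luminal libraries for 29 members. That library and WT basal replicate 1 also had the fewest genes with a count, 19472 and 20911, against 23144 to 26410 in the others. Mitochondrial genes summed to 21908 CPM in WT luminal replicate 1, and to between 59052 and 82096 CPM in the remaining luminal libraries. In basal cells they were highest in MMTVRANK replicate 2, with 165925 CPM, and lowest in WT replicate 1, with 54644 CPM, against 87171 to 100859 CPM in the other 4. The libraries with the most and the fewest mitochondrial counts were thus also high and low in the members. MMTVRANK basal replicate 1 went the other way, with the lowest member deviation of the basal libraries (−0.85) but 100859 CPM of mitochondrial genes. So did MMTVRANK luminal replicate 3. It had 59052 CPM, the least of the luminal libraries after WT replicate 1, but a member deviation of 0.35, above all WT luminal libraries. The part of mitochondrial counts and of the number of genes detected was not tested.

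**Figure D2:**
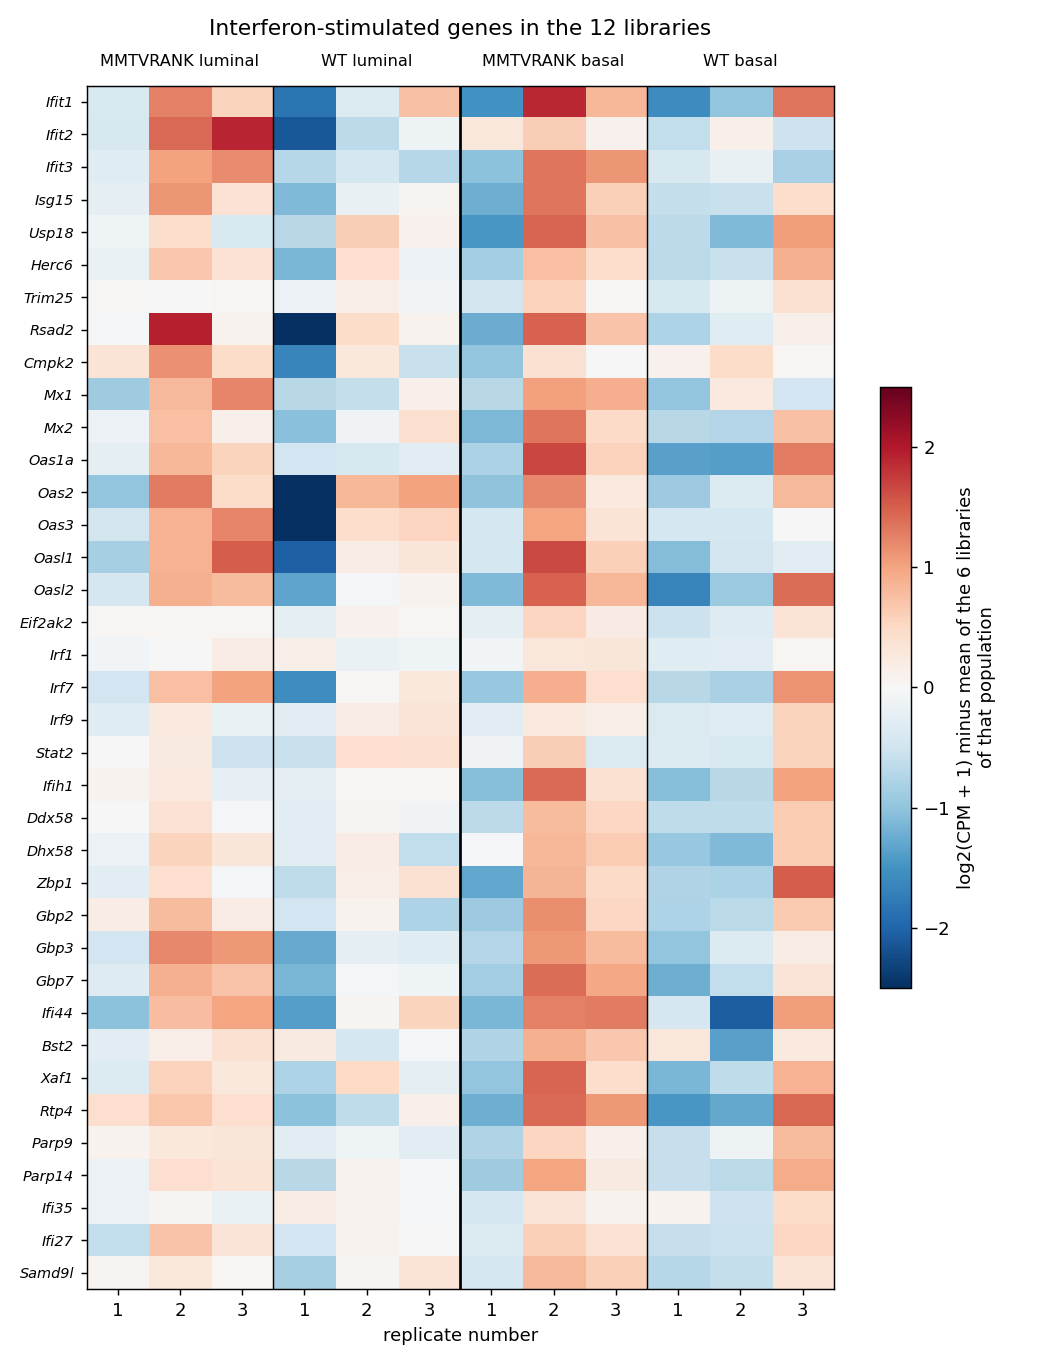
Each of the 37 interferon-stimulated genes (rows) in each of the 12 libraries (columns, by group and replicate number), as log2(CPM + 1) minus the mean of the 6 libraries of that population, on a colour scale that ends at −2.5 and 2.5. Most rows change colour together along the columns, with MMTVRANK basal replicate 2 and WT basal replicate 3 red and replicate 1 blue in most rows.

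As a description, the deviations of each member from its group means were correlated over the 12 libraries with the median of the other 36; points of a group share its mean and all members share the library's depth. The median r was 0.889, and 26 of the 37 members had r above 0.8. The closest were Mx2 (r = 0.977), a GTPase that blocks viruses, Gbp7 (0.976), Ifit1 (0.969) and Isg15 (0.968). The least close were Ifit2 (0.395), Irf1 (0.536) and Bst2 (0.572), the protein tetherin that holds budding viruses on the cell surface. Ifit2 was thus the member nearest to a genotype call in luminal cells in the fit without the replicate block. Over all 12 libraries it was also the one that followed the others least. Its highest library was 1.43 and 1.73 times the lowest in MMTVRANK and WT basal cells. In luminal cells the same ratio was 5.82 and 8.91, with replicate 1 the lowest in both genotypes, as for most members. The correlation was not taken within 1 population.

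Isg15, the ubiquitin-like modifier, is a typical case, with 4.70, 13.7 and 7.73 CPM in MMTVRANK luminal replicates 1, 2 and 3, against 2.17, 4.97 and 6.10 CPM in WT luminal replicates. In basal cells it had 1.82, 15.7 and 8.93 CPM in MMTVRANK replicates, against 3.33, 3.46 and 7.96 CPM in WT replicates. Both its highest and its lowest basal library were MMTVRANK libraries. The coefficient of variation within a group had a median over members of 32.0% in MMTVRANK luminal, 38.9% in WT luminal, 62.8% in MMTVRANK basal and 62.3% in WT basal cells. The highest library of the 3 in a group was in the median 1.85 and 2.26 times the lowest in MMTVRANK and WT luminal cells, and 4.34 and 3.07 times in MMTVRANK and WT basal cells.

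**Figure D3:**
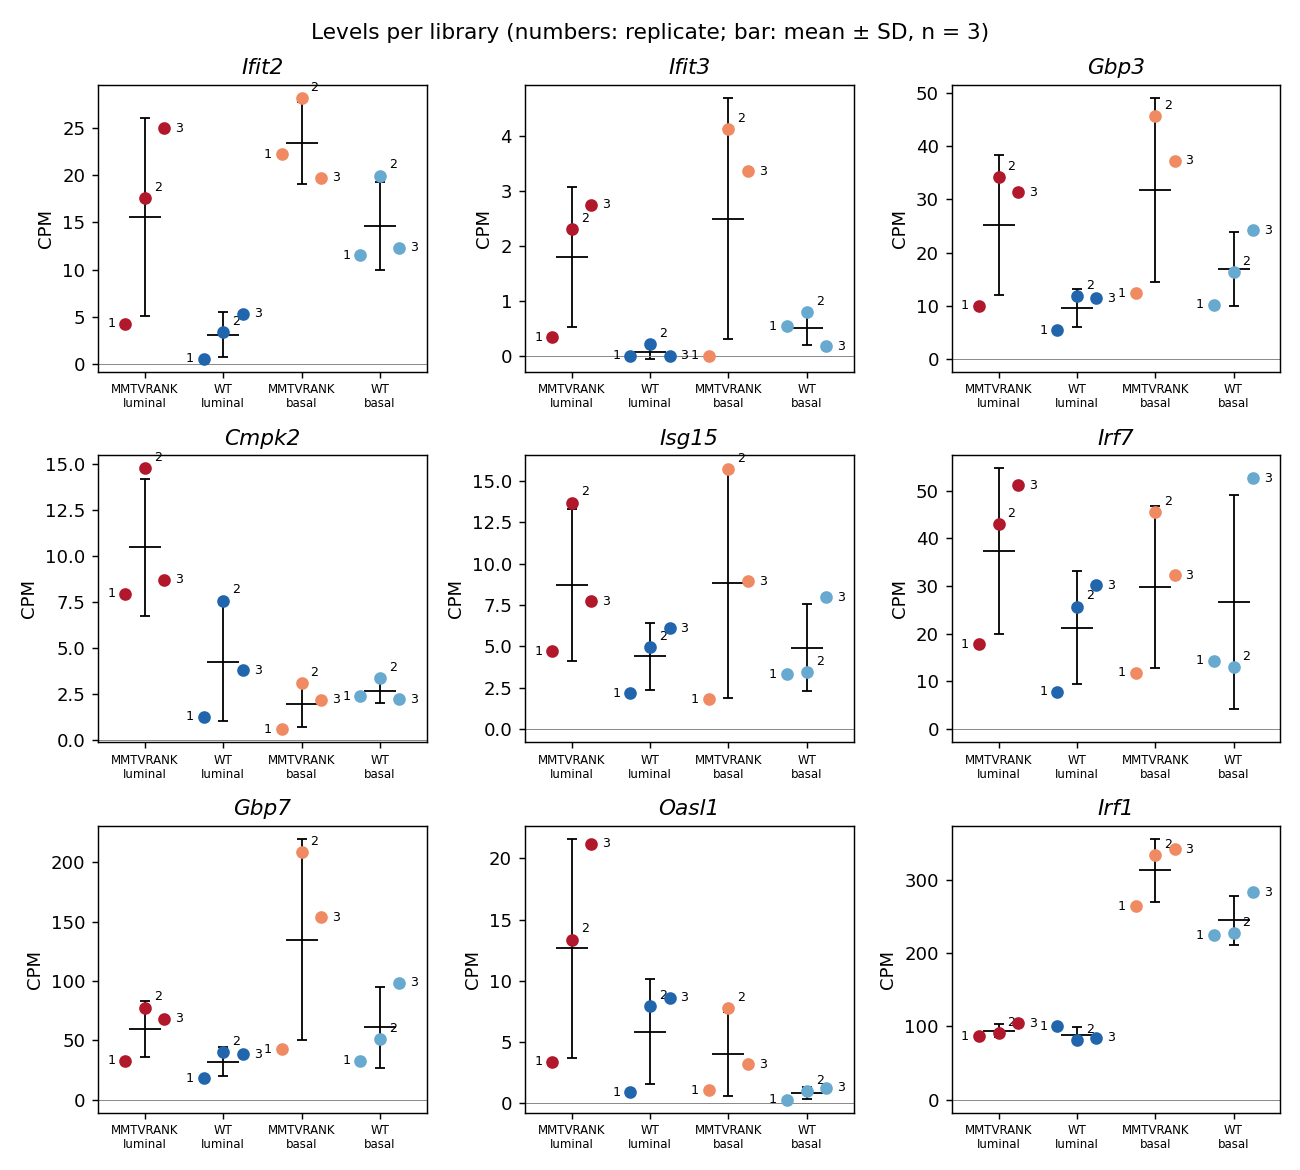
CPM of 9 interferon-stimulated genes in each of the 12 libraries (points, with the replicate number), with the mean and SD of the 3 libraries of a group (horizontal line and bar). Within groups replicate 1 is the lowest in most panels, and only Irf1 shows luminal and basal libraries in separate ranges.

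**Figure D4:**
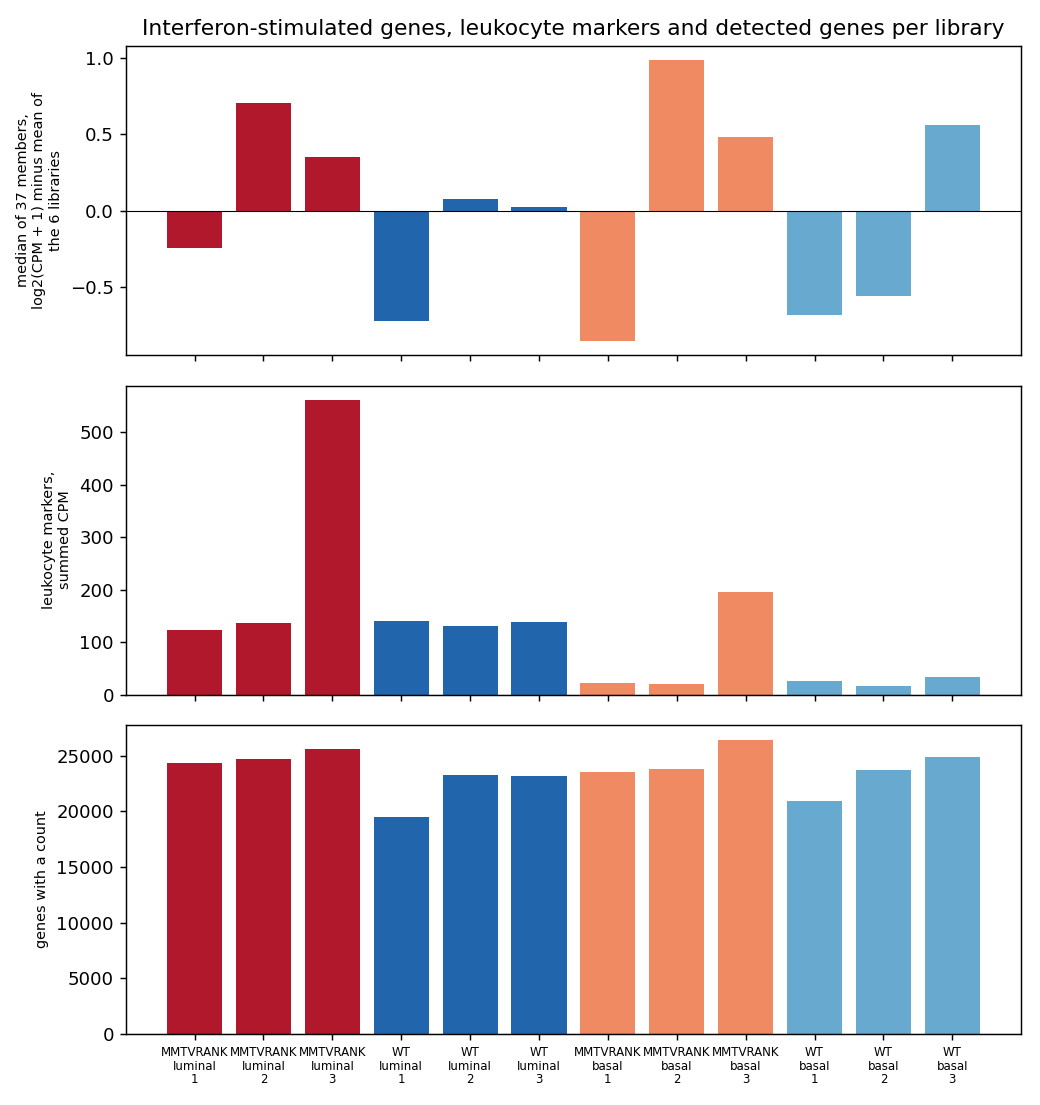
Per library, the median member deviation (log2(CPM + 1) minus the mean of the 6 libraries of the population, top), the summed CPM of 25 leukocyte markers (middle) and the number of genes with a count (bottom). The highest leukocyte sums are 561 CPM in MMTVRANK luminal replicate 3 and 195 CPM in MMTVRANK basal replicate 3, whose member deviations are 0.35 and 0.49, and the highest deviations are 0.71 and 0.99 in replicate 2 of these groups.

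Between the cell populations some members passed the test. In MMTVRANK libraries 8 of the 37 members passed between luminal and basal cells, 6 higher in luminal and 2 lower, where 33.2% of all genes passed, 16.1% higher and 17% lower, so the share of members called was no larger than that of all genes. Higher were the sensors Ifih1 (1.96) and Dhx58 (1.81), Parp9 (2.05), Ifi35 (1.15), Cmpk2 (2.41) and Bst2 (1.96), and lower were Irf1 and Samd9l. In all, 27 members had a higher fitted level in luminal cells, against 51.9% of all genes, and the median of the members was 0.68, against 0.05 over all genes. With the replicate number as a block, 15 members passed, 12 higher and 3 lower, and these 15 included the 8; 35.6% of all genes passed with the block. Rsad2, Oas2 and Oas3 had log2 fold changes of 2.87, 3.38 and 3.78 without the block and adjusted p of 0.0522, 0.0689 and 0.0564.

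In WT libraries 12 of the 37 members passed between luminal and basal cells, 10 higher in luminal and 2 lower, where 38.1% of all genes passed, and again the share of members called was no larger. By direction, 18% of all genes were higher and 20% lower. A higher fitted level in luminal cells was again seen for 27 members, against 47.4% of all genes, and the median of the members was 0.66, against −0.07 over all genes. Higher in luminal cells were the sensors Ifih1 (2.42) and Dhx58 (2.31), the Oas enzymes Oas2 (3.84) and Oas3 (5.76), the Oas-like Oasl1 (2.74), the kinase Eif2ak2 (PKR, 0.77), viperin (Rsad2, 2.95), Bst2 (2.44), Parp9 (1.52) and Ifi35 (1.28). Lower were Irf1 and Ifit2. With the replicate number as a block 17 members passed, 13 higher and 4 lower, and these 17 included the 12; 40.2% of all genes passed with the block.

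Irf1 had 86.5, 91.2 and 104 CPM in MMTVRANK luminal replicates and 100.6, 80.8 and 84.5 CPM in WT luminal replicates, below every basal value given above in both genotypes. The log2 fold change of luminal over basal was −1.74 (SE 0.16, adjusted p = 7.60e-06) in MMTVRANK and −1.47 (SE 0.16, adjusted p = 2.66e-05) in WT cells. It passed in each setting tried in both genotypes. Irf1 shares 135 exon bases with Gm17334 on the other strand.

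Ifit2 had 22.2, 28.2 and 19.7 CPM in MMTVRANK basal replicates and 11.5, 19.95 and 12.3 CPM in WT basal replicates. In WT every luminal library was below every basal one, and the fitted difference was −2.22 on the log2 scale (SE 0.70, adjusted p = 0.0262). In MMTVRANK the populations overlapped and the fitted value was −0.58. The WT call was lost without WT luminal replicate 1, without the library labelled WT luminal replicate 2 and without the library labelled WT basal replicate 2. The difference between genotypes in this luminal to basal step is the same contrast as the 1.64 given above, which did not pass.

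Parp9, which works in a complex with the ubiquitin ligase Dtx3l, had 82.9, 93.3 and 96.5 CPM in MMTVRANK luminal and 12.1, 30.8 and 23.0 CPM in MMTVRANK basal replicates 1, 2 and 3. In WT it had 63.5, 72.3 and 65.0 CPM in luminal and 13.8, 19.2 and 37.2 CPM in basal replicates. Luminal libraries were above basal ones in both genotypes (adjusted p = 0.00103 in MMTVRANK and 0.00568 in WT, SE 0.36 in each). Parp9 and Dtx3l share 458 exon bases on opposite strands, and Dtx3l passed in the same direction in both genotypes.

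Ifi35, which binds the interferon-induced protein Nmi, had 35.9, 41.7 and 35.1 CPM in MMTVRANK luminal and 12.3, 20.9 and 17.7 CPM in MMTVRANK basal replicates. In WT it had 45.5, 42.5 and 38.5 CPM in luminal and 17.6, 11.3 and 23.2 CPM in basal replicates. The populations did not overlap in either genotype (adjusted p = 0.00486 in MMTVRANK and 0.00224 in WT, SE 0.26 in each), and Nmi was also higher in luminal cells in both. Ifi35 shares 290 of its 1727 exon bases with RP23-328K2.4 on the other strand.

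Bst2 had 17.2, 23.9 and 28.1 CPM in MMTVRANK luminal and 2.04, 8.52 and 7.21 CPM in MMTVRANK basal replicates. In WT it had 25.1, 15.5 and 20.6 CPM in luminal and 5.26, 1.01 and 5.05 CPM in basal replicates. Each luminal library was above each basal one (adjusted p = 0.0201 in MMTVRANK, SE 0.58, and 0.00655 in WT, SE 0.59).

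Dhx58, the RNA-binding relative of the other sensors that has no signalling domain of its own, had 12.3, 20.7 and 17.2 CPM in MMTVRANK luminal and 2.87, 6.15 and 5.25 CPM in MMTVRANK basal replicates. In WT it had 11.1, 15.7 and 8.64 CPM in luminal and 1.08, 0.864 and 5.22 CPM in basal replicates. The populations did not overlap (adjusted p = 0.0315 in MMTVRANK, SE 0.59, and 0.00978 in WT, SE 0.61). Ifih1, the sensor MDA5, showed the same separation, with 50.2 to 68.9 CPM in MMTVRANK luminal and 4.31 to 28.7 CPM in MMTVRANK basal libraries, and 49.2 to 60.3 CPM in WT luminal and 4.33 to 21.5 CPM in WT basal libraries.

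Cmpk2 had 0.605, 3.12 and 2.19 CPM in MMTVRANK basal replicates, below all 3 MMTVRANK luminal libraries given above (log2 fold change 2.41, SE 0.68, adjusted p = 0.0163). In WT basal replicates it had 2.40, 3.39 and 2.22 CPM, which overlapped the WT luminal libraries. Samd9l, a restriction factor that slows growth and translation, had 29.6, 34.5 and 29.5 CPM in MMTVRANK luminal replicates and 38.0, 91.4 and 79.2 CPM in MMTVRANK basal replicates, again without overlap (log2 fold change −1.16, SE 0.39, adjusted p = 0.0383). In WT it had 15.6, 29.9 and 36.3 CPM in luminal and 31.3, 34.3 and 66.3 CPM in basal replicates and did not pass.

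Oas3, which makes the 2′-5′ oligoadenylates that activate the nuclease RNase L, had 64, 194 and 275 counts in MMTVRANK luminal and 0, 20 and 9 counts in MMTVRANK basal libraries, without overlap. In WT it had 3, 126 and 152 counts in luminal and 0, 0 and 4 counts in basal libraries. WT luminal replicate 1 was within the range of the basal libraries, so that the groups overlapped although the test passed (adjusted p = 0.0180). The WT groups overlapped in the same way for Oas2, Oasl1 and Rsad2, where the lowest luminal library was again WT luminal replicate 1.

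**Figure D5:**
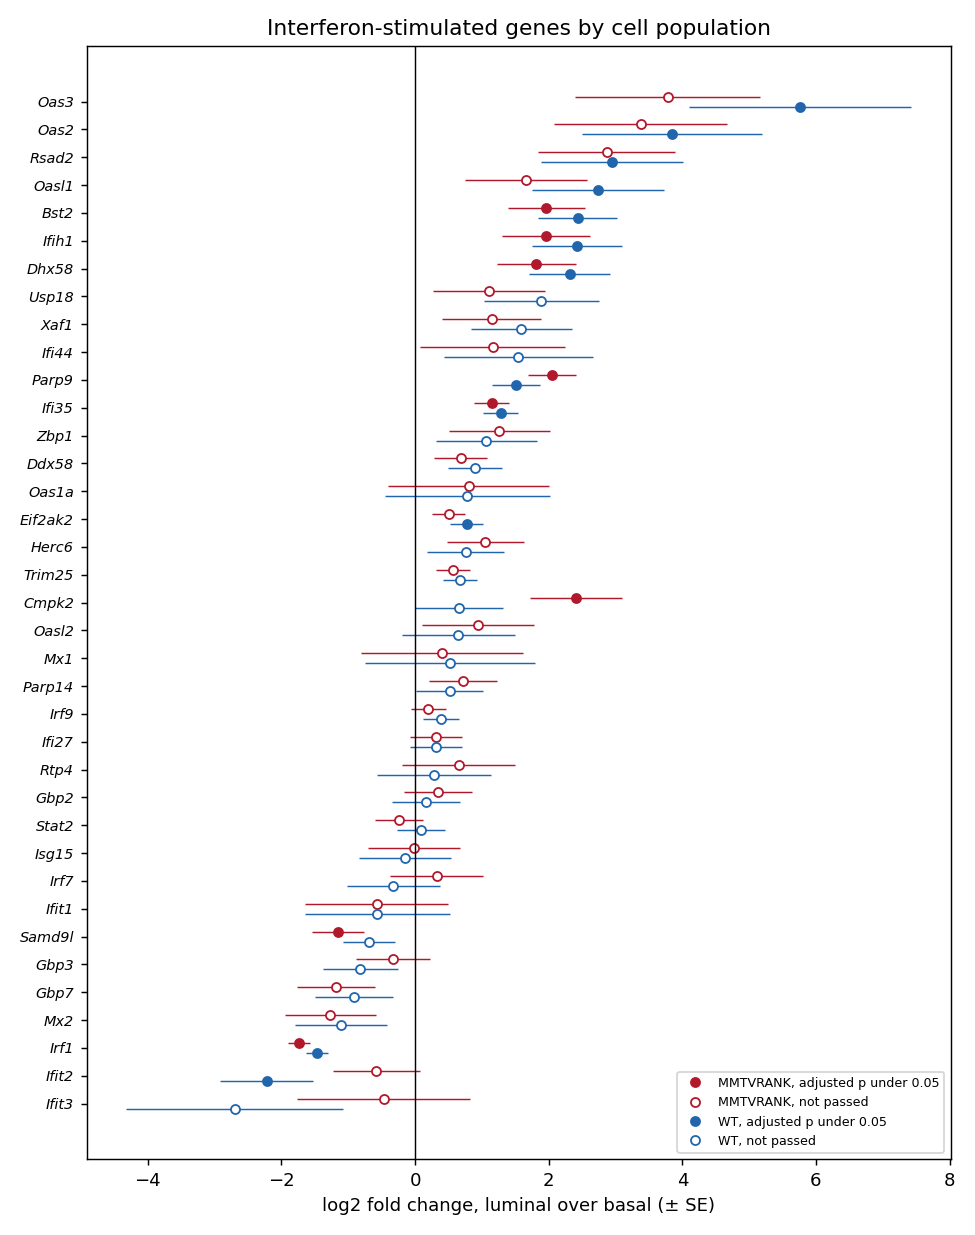
Log2 fold change of luminal over basal cells (points, with SE as bars) for the 37 interferon-stimulated genes, in MMTVRANK libraries (red, upper point of each row) and WT libraries (blue), in the order of the WT values; filled points passed the adjusted p threshold of 0.05. Irf1, Bst2, Ifih1, Dhx58, Parp9 and Ifi35 are filled in both genotypes.

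The counts of members called between populations depended on single libraries. In MMTVRANK 3 members passed without luminal replicate 2 (23.8% of all genes) and 4 without luminal replicate 3 (28.2%), and 5 passed without basal replicate 1 (24.6%) and also without basal replicate 3 (25.2%). In WT 7 passed without the library labelled WT luminal replicate 2 (30.5% of all genes), 7 without WT basal replicate 1 (33.8%), 5 without the library labelled WT basal replicate 2 (32.5%), and 3 (Bst2, Irf1 and Ifi35) without both libraries labelled WT replicate 2 (28%). The MMTVRANK call of Ifih1 was lost in 9 of the 19 alternative settings, among them those without each MMTVRANK luminal library, and that of Samd9l in 7. The call of Dhx58 was lost without MMTVRANK luminal replicate 2 or 3 or any 1 of the MMTVRANK basal libraries, that of Bst2 without luminal replicate 2 or 3 or basal replicate 1, and that of Cmpk2 without luminal replicate 2 or basal replicate 1. Irf1, Parp9 and Ifi35 kept the MMTVRANK call in all 19. In WT, Rsad2 lost its call in 12 of the 19, Oas2 and Oasl1 in 10 each, Eif2ak2 in 6 and Oas3 in 5, and Ifih1 lost it in 2. A member left out of a fit for low counts was also counted as having lost its call. With only the WT groups compared, 34 members were fitted. Judged by its counts, Oas3 was left out there, so that loss was not a test result. Dhx58 and Parp9 lost the WT call only without both libraries labelled WT replicate 2, and Irf1, Bst2 and Ifi35 kept it in all 19. Of the 18 leukocyte markers tested between populations, 15 were higher and 3 lower in MMTVRANK luminal than in MMTVRANK basal cells (median 1.52). In WT 9 were higher and 9 lower in luminal cells (median −0.16), and in each genotype 1 passed, as higher. The 25 markers summed to 124 to 561 CPM in MMTVRANK luminal and 19.5 to 195 CPM in MMTVRANK basal libraries. In WT they summed to 131 to 140 CPM in luminal and 15.7 to 33.5 CPM in basal libraries, higher in luminal although the markers split evenly. Endothelial markers ran the other way, with 9.01 to 24.3 CPM in MMTVRANK luminal and 72.4 to 221 CPM in MMTVRANK basal libraries, and 7.16 to 14.4 CPM in WT luminal and 118 to 263 CPM in WT basal libraries. All 8 passed as lower in luminal cells in each genotype. Fibroblast markers summed to 77.8 to 233 CPM in MMTVRANK luminal and 497 to 657 CPM in MMTVRANK basal libraries, and to 38.0 to 136 CPM in WT luminal and 270 to 2779 CPM in WT basal libraries. Of the 7 fibroblast markers, 2 passed as lower in luminal cells in MMTVRANK and 6 in WT. The part of these cells in the members' differences was not tested.

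Levels were compared between members per kilobase of exon. In MMTVRANK luminal cells Ifi27, a small interferon-induced membrane protein, was the highest with 60.3 ± 25.7 CPM per kilobase (SD, n = 3), followed by Gbp2 with 45.9 ± 11.7. The lowest was Mx1, a GTPase that blocks influenza viruses in mice with the intact gene, with 0.724 ± 0.593 CPM per kilobase. In WT luminal cells Ifi27 and Gbp2 also led, with 47.0 ± 9.35 and 26.9 ± 8.46 CPM per kilobase. The lowest there were Mx1, with 0.238 ± 0.172 CPM per kilobase, and Ifit3, with 0.122 CPM per kilobase in the library labelled WT luminal replicate 2 and 0 in the other two. In basal cells Irf1 led, with 78.8 ± 10.8 CPM per kilobase in MMTVRANK and 61.6 ± 8.39 in WT, ahead of Ifi27 and Gbp2, and Oas3 was the lowest in both.

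In CPM, Ifi27 had 48.2, 123 and 94.1 in MMTVRANK luminal replicates, against 53.4, 79.1 and 74.5 in WT luminal replicates, and Gbp2 had 98.2, 149 and 98.5 in MMTVRANK luminal replicates, against 61.7, 91.3 and 50.0 in WT luminal replicates. The Ifi27 libraries overlapped between genotypes and the Gbp2 libraries did not. Mx1 had 0.272, 3.13 and 4.51 CPM in MMTVRANK luminal replicates, against 0.449, 0.568 and 1.59 CPM in WT luminal replicates, and the lowest of the 6 was MMTVRANK replicate 1.

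The interferon genes themselves were at or near 0 counts. Of 12 interferon genes, 5 had no count in any library and none had enough counts to be tested. The highest was Ifnk, an interferon known from skin, with at most 14 counts in a library and 44 in all, and the others reached at most 5 counts in a library.

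Genes of the same pathway outside the 37 gave no genotype call either. Of the receptor genes, Ifnar1 and Ifnar2 had luminal log2 fold changes of 0.29 and −0.23, and Jak2, a kinase of the type II receptor, had −0.41 (SE 0.17, adjusted p = 0.339). Of 11 tested genes of nucleic acid sensing upstream of interferon, Ikbke (0.68, adjusted p = 0.234), a kinase that activates interferon factors, and Mb21d1 (1.12, adjusted p = 0.372), the DNA sensor cGAS, had the smallest p in luminal cells. Of 7 tested negative regulators these were Socs1 (1.35, adjusted p = 0.368) and Socs3 (−0.81, adjusted p = 0.387), both of which restrain JAK kinases.

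A further 42 interferon-induced genes were listed, of which 41 were tested. In luminal cells 32 of the 41 were higher in MMTVRANK, the median being 0.46 (log2), and none passed. Gbp4 came nearest, with 4.90, 10.9 and 15.3 CPM in MMTVRANK luminal replicates, against 1.95, 2.84 and 2.03 CPM in WT luminal replicates. The groups did not overlap and the log2 fold change was 2.19 (SE 0.57, adjusted p = 0.128). In basal cells 23 of the 41 were higher in MMTVRANK, with a median of 0.08, where the 37 members had 33 and 0.63. The smallest p there were those of Ifi204 (−2.14) and Ifi207 (−1.90), both with an adjusted p of 0.977.

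Between populations these lists moved in both directions. Jak2 was higher in luminal cells (0.98 in MMTVRANK and 1.31 in WT) and Ifnar1 lower (−0.60 in MMTVRANK, adjusted p = 0.0386, and −0.82 in WT, adjusted p = 0.00763), while Ifnar2 did not pass in either. The double-stranded RNA receptor Tlr3 was higher in luminal cells, by 2.28 in MMTVRANK and 1.85 in WT, and so was Tmem173, the adaptor STING. Of the 41 further interferon-induced genes tested, 12 passed as higher and 3 as lower in MMTVRANK luminal than in MMTVRANK basal cells, beside the 33.2% of all genes that passed there. In WT 9 passed as higher and 2 as lower, beside 38.1% of all genes. By fitted sign alone 26 were higher and 15 lower in MMTVRANK, and 23 were higher and 18 lower in WT. Ifitm3, which blocks viral entry, was lower in luminal cells in both (−1.29 in MMTVRANK and −1.62 in WT).

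Reads were counted without regard to strand, and 13 of the 37 members share exon bases with another gene model, 9 of them with one on the opposite strand, as Parp9 does with Dtx3l. On the shared bases the reads of both genes cannot be told apart. These bases ran from 24 of 2516 exon bases in Gbp2 to 1269 of 9292 in Herc6. As a share of the member's exon bases they were the most in Ifi35, with 290 of 1727. The Ifit, Oas, Mx and Gbp members belong to families of similar genes, so their counts are less certain than those of genes without close copies.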

How the data were processed

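Per the labels' protocols, RNA of sorted cells went into libraries with the SMARTer Stranded Total RNA-seq Pico kit. The submitters' processing notes name STAR 2.6.1b, Subread 1.5 and the build GRCm38.p6. Raw counts for each symbol were deposited; per the file headers, featureCounts 1.5.2 made them on GENCODE M17 by largest overlap and with no strand option. Deposited summed exon lengths served to compare levels between genes. No column was left unmapped, and groups follow the titles.

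Genes were kept with filterByExpr (count minimum 10) and fitted with TMM scaling in 1 quasi-likelihood model of edgeR 4.0.16 (R 4.3.3) over 12 libraries and 4 groups, with a common biological coefficient of variation of 0.450. P-values were Benjamini-Hochberg adjusted over all 18236 genes, and each SE is the absolute fold change (log2) divided by the root of F. DESeq2 1.42.0 and limma 3.58.1 (voom) were alternatives, beside DESeq2 size factors, no filter, only the groups compared, a replicate block and leaving out libraries. The fit was tested on simulated data. No pair of libraries was a duplicate.

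The members, the lists and the tests were chosen with earlier results of these data known. Members named were those called between populations (the 4 smallest p per direction and genotype), the 3 smallest p in each other contrast, and the 2 highest and 2 lowest per exon length in WT luminal cells; Isg15, and the members named only by a count, were chosen after their values were seen. Pathway genes were named where they had the 2 smallest p of a list, with Ifnar1, Ifnar2 and Tnfrsf11a named whatever their values; Tmem173, Dtx3l and Nmi were chosen after their values were seen.

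Whether replicate numbers pair libraries was checked on the correlation of deviations from group means over 9330 genes. For numbers 1, 2 and 3 it was 0.560, 0.115 and 0.418 between genotypes in luminal cells, 0.258, 0.151 and 0.114 between populations in MMTVRANK and 0.291, 0.168 and 0.380 in WT. All exceed 0.1, so these were read as paired, on the data alone. Libraries of unlike number reached at most 0.097, 0.020 and 0.047 in the same comparisons. In luminal cells the 0.115 of number 2 was thus close to the highest value for unlike numbers. The labels state no pairing, and the main fit has no block. Its SE, p-values and counts of calls therefore leave this pairing out, and the replicate block was run as an alternative. A gene of the pathway, and the counts over its list, are not reported here.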

Additional observations from a re-analysis of the deposited data

How the results depend on the processing

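Direction was followed across the alternatives for the population calls with the 4 smallest p per direction and genotype, and the 3 smallest p in each other contrast. None of these changed its direction, and the other members were not followed. No member passed between genotypes with limma-voom, DESeq2 size factors, the replicate block, only the groups compared, or 1 library left out. Members called between genotypes were 1 with DESeq2 and 7 with no low-count filter in luminal cells (Ifit2, Ifit3, Gbp2, Gbp3, Gbp7, Oasl2 and Rsad2), and 2 with no filter in basal cells (Oasl1 and Gbp7), where 3.58% and 0.924% of all genes passed without the filter. With no filter the members called between populations were 22 in MMTVRANK and 20 in WT (16.1% and 18.5% of all genes), with the replicate block 15 in MMTVRANK, and without both libraries labelled WT replicate 2 they were 3 in WT. With 1 library left out they were 3 to 10 in MMTVRANK and 5 to 18 in WT; the cause was not tested. Replicate numbers did not pair the basal genotype groups (correlations 0.405, −0.047 and 0.160), and there the block gave 0 calls and a median of 0.53; in luminal cells it gave 0 calls too, and between populations it lost no call and added 7 in MMTVRANK (Rsad2, Oas2, Oas3, Oasl1, Gbp7, Herc6 and Trim25) and 5 in WT (Gbp3, Gbp7, Ddx58, Xaf1 and Trim25), with 17 called in WT. For the member medians, leaving out 1 library gave 0.24 to 0.74 for genotype in luminal cells, 0.09 to 1.28 in basal cells, 0.35 to 1.13 between populations in MMTVRANK, 0.28 to 1.25 in WT and −0.72 to 0.40 for the difference of genotype effects. Ifit3 rests on 3 counts in WT luminal cells, and the low-count filter left it out of the fit of only the luminal groups.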
